A study of Mus musculus with 62 samples.

Results

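RNA-seq of the diaphragm compared 7 cachectic mice with 5 control mice at 8 weeks after tumor implantation, 12 of the 62 mice of the series. The members were chosen by their labels alone, as the mice that received cachectic melanoma cells or a mock injection and were collected at 8 weeks. The cachectic mice carried a patient-derived human melanoma xenograft placed in the flank, from a tumor that causes wasting, and the controls received the same injection without tumor cells. All mice were female and 2 months old according to the labels. The labels give the strain as C57BL/6J, whereas the design text of the series names NCI Ath/nude mice, which lack most T cells and can hold a human graft. The study's methods also name NCI Ath/nude mice, bought at 2 months of age, for the melanoma xenografts. They name C57BL/6J mice for a Lewis lung carcinoma model. Each library came from the diaphragm of 1 mouse, and every cachectic mouse received cells of the same tumor, so the comparison holds for 1 xenograft. A second set of 5 mice with a non-cachectic melanoma xenograft at 8 weeks, and cachectic and control mice at 6 weeks, were used for reference only.

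Cancer cachexia is a wasting of muscle and fat that accompanies systemic inflammation, and the diaphragm, the main muscle of breathing, takes part in it. Muscle mass follows the balance of protein synthesis and of degradation through the ubiquitin-proteasome system and the lysosome. Cytokines of the IL-6 family signal through gp130 and STAT3, and glucocorticoids through their nuclear receptor, and both pathways raise sets of well-known target genes. In muscle the FoxO factors drive the atrophy ligases Trim63 (MuRF1) and Fbxo32 (atrogin-1).

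1 of the 12 libraries stood apart from the rest. In cachectic replicate 3, 15263 genes were above 0, against 18026 to 18714 in the other 11 libraries, and mitochondrially encoded genes took 57.1% of all TPM, against 32.5% to 41.6% in the other cachectic mice and 40.9% to 49.3% in the controls. The log2 values of this library correlated with those of the other cachectic mice at r = 0.811 to 0.867 across genes. For each other cachectic mouse the highest r within its group was between 0.959 and 0.989. The controls correlated with each other at 0.978 to 0.986. Its deviation from the control mean went down with the exon length of the gene (Spearman's rho = -0.437 across 13131 genes of 1 length each), whereas rho lay between -0.208 and 0.205 in the other 11 libraries. Counts over all genes and over gene lists are therefore given with all 7 cachectic mice and with the 6 without replicate 3. A gene described only with all 7 mice kept its call and direction without replicate 3. Whether the state of its RNA or the state of the animal sets these values was not tested.

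**Figure D1:**
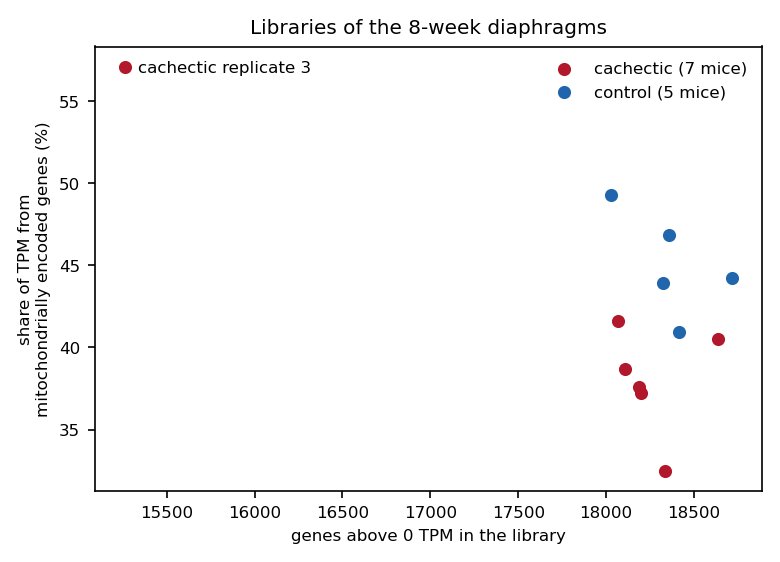
Number of genes above 0 TPM (horizontal axis) and share of TPM from mitochondrially encoded genes (vertical axis, %) in each of the 12 libraries, cachectic in red and control in blue. Cachectic replicate 3 lies alone at 15263 genes and 57.1%, and the other 11 libraries lie between 18026 and 18714 genes.

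Myofiber markers were abundant in all libraries. The 10 markers of myofibers summed to 50970 to 112100 TPM in cachectic mice, the lowest in replicate 3, and to 73100 to 88810 TPM in controls. Of 8 mouse genes of melanocytes, Tyr, Mlana and Slc45a2 were listed at 0 in all 7 cachectic mice, and Pmel, Tyrp1 and Dct lay at 0.522 TPM or lower in them. The remaining members, Mitf and Sox10, also known from other cells, were at 3.69 to 8.196 TPM and 0.115 to 3.12 TPM in cachectic mice and at 6.28 to 8.12 TPM and 1.76 to 2.57 TPM in controls. The list summed to 4.14 to 11.4 TPM in cachectic mice and 9.21 to 10.6 TPM in controls. In bulk tissue, fewer cells of a type and less RNA per cell cannot be told apart.

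Differences are given on the log2(TPM + 1) scale, cachectic minus control, with the standard error (SE) and the Benjamini-Hochberg adjusted p of limma over 13578 genes that reached 1 TPM or more in 5 or more of the 62 mice. This scale understates the change of genes with a low level. At an adjusted p under 0.05, 903 genes (6.65%) rose and 1102 (8.12%) fell with all 12 mice. By more than 1 on the log2 scale, 181 genes (1.33%) rose and 225 (1.66%) fell. Without replicate 3, 1708 genes (12.6%) rose and 833 (6.13%) fell, and 309 (2.28%) and 158 (1.16%) did so by more than 1. Of these, 863 higher and 753 lower genes were called in both, and 0 with the opposite sign. The share of higher genes also moved with the scaling, from 3287 higher and 1634 lower genes under array weights to 746 and 2869 when TPM were rescaled without mitochondrially encoded genes. The median of all genes was -0.09 with all mice, 0.06 without replicate 3, -0.21 without the mitochondrially encoded genes and 0.01 after median-ratio scaling. Every cachectic mouse lay above every control for 342 genes (2.52%) and below for 519 (3.82%). Among the 6 mice without replicate 3, these counts were 1291 (9.51%) and 600 (4.42%). When only the 4 cachectic and 2 control mice with Alb, a hepatocyte gene, under 10 TPM were compared, 742 genes rose and 146 fell. This choice was made after seeing the data, and the mice of the other conditions stayed in the fit and shared in its spread. The counts of list members given below stand against the shares of all genes, 6.65% higher and 8.12% lower with all mice and 12.6% and 6.13% without replicate 3.

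**Figure D2:**
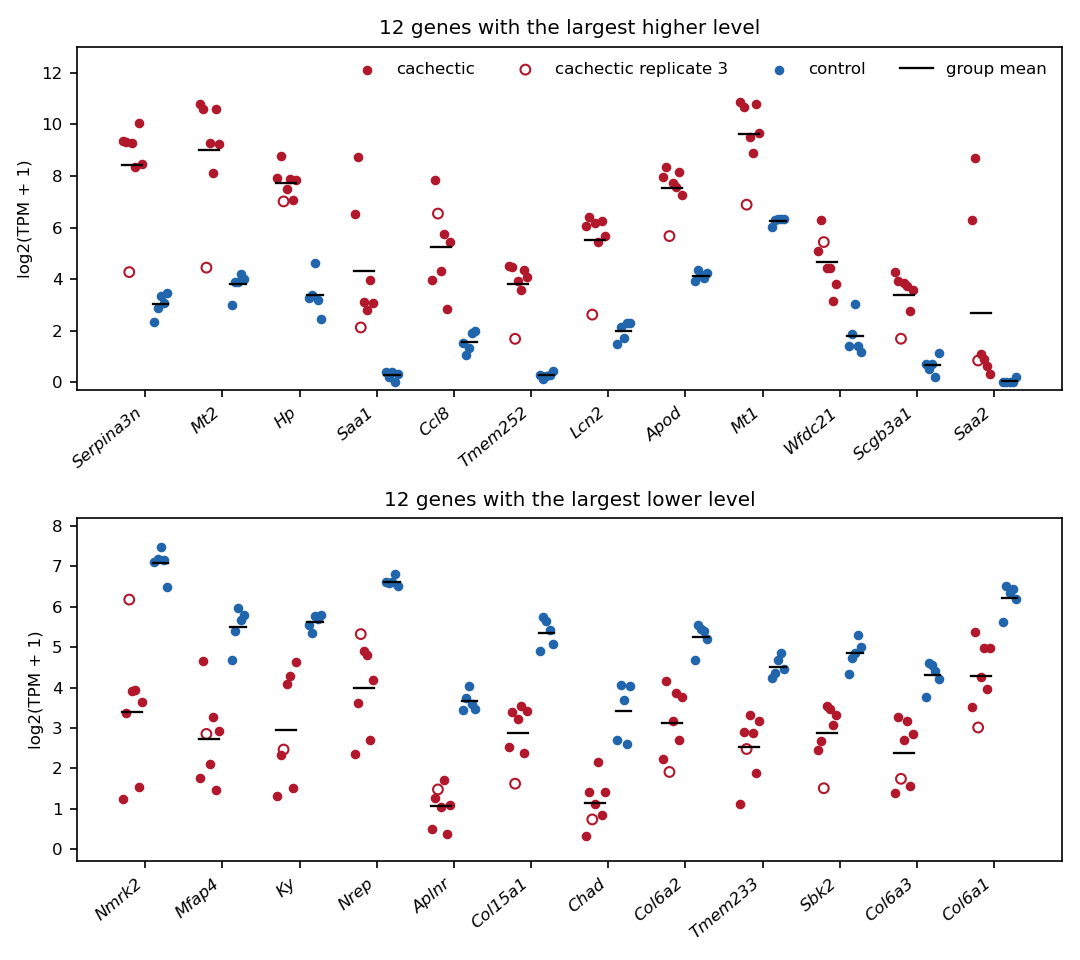
log2(TPM + 1) of the 12 genes with the largest higher level (upper panel) and the 12 with the largest lower level (lower panel) among genes that passed the test without overlap between groups. Points are mice, cachectic in red and control in blue, open circles mark cachectic replicate 3, and black lines are group means. In Serpina3n, Mt2, Lcn2 and Apod the open circle lies closest to the controls, at 18.4, 20.9, 5.19 and 50.03 TPM, and still above them.

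The largest higher genes were a protease inhibitor, metal-binding proteins and proteins of the acute phase response. The 12 largest genes in each direction were chosen among genes without overlap between the groups, so their separation follows from the choice. Serpina3n (chromosome 12, 104406729 to 104414329, plus strand in GRCm38), a secreted inhibitor of serine proteases, was at 18.4 to 1062 TPM with a median of 614 TPM in cachectic mice and at 4.08, 6.402, 9.07, 7.52 and 10.1 TPM in the controls. The lowest cachectic mouse was replicate 3. The log2 difference was 5.42 ± 0.64 (SE), adjusted p = 2.7e-08 with limma, and 6.11, adjusted p = 3.5e-12 without replicate 3. In the mice with the non-cachectic tumor, Serpina3n was at 6.91, 7.08, 21.7, 6.93 and 4.82 TPM, 1 of them above the control range. Of 23 serpins and other protease inhibitors tested, 9 rose and 2 fell, and 9 and 0 did so without replicate 3. Serpinb1a, an intracellular inhibitor of neutrophil proteases, lay at 20.5 to 67.8 TPM with a median of 49.8 TPM in cachectic mice and at 9.58, 12.2, 13.3, 18.96 and 13.5 TPM in controls, a difference of 1.68 ± 0.24 (SE), adjusted p = 9.5e-07 with limma. Replicate 3 was at 57.7 TPM and so among the high mice for this gene. Serpina3i rose by 1.38 (adjusted p = 9.8e-07, limma), but it has near-identical neighbours in the Serpina3 cluster, so the split of reads among them is uncertain.

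The metallothioneins Mt1 and Mt2, small cysteine-rich proteins that bind zinc and copper, rose together. Mt2 (chromosome 8, 94172664 to 94173568, plus strand) was at 20.9 to 1750 TPM with a median of 622 TPM in cachectic mice and at 6.96, 14.0, 13.9, 17.3 and 14.9 TPM in controls. Mt1 was at 118 to 1868 TPM with a median of 814 TPM and at 64.8, 76.6, 80.3, 80.3 and 80.2 TPM. Replicate 3 was the lowest cachectic mouse for both genes, at 20.9 TPM and 118 TPM, above every control as the choice of these genes required. The differences were 5.21 ± 0.65 (SE), adjusted p = 9.2e-08 for Mt2 and 3.34 ± 0.42 (SE), adjusted p = 1.0e-07 for Mt1 (limma), and they reached 5.97 and 3.80 without replicate 3. Slc39a14, the zinc and iron importer Zip14, was at 0.393 to 95.5 TPM with a median of 23.2 TPM in cachectic mice and 3.19, 4.22, 4.04, 3.78 and 3.79 TPM in controls (log2 difference 2.11 ± 0.49 (SE), adjusted p = 0.0015, limma). For this gene replicate 3, at 0.393 TPM, lay below every control, and the difference was 2.76 without it. In all, 3 of 19 genes of zinc handling rose and 1 fell, and 6 and 0 without replicate 3.

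The promoters of Mt2 and Mt1 are shown because both genes rose together and sit next to each other on chromosome 8. The sequences run from 250 bases before to 50 bases after the annotated start and are RefSeq sequences of GRCm38.p6. Capitals mark the letters TGCNCNC on either strand. This pattern is looser than the core of the metal response element, which is TGCRCNC with R for A or G. That core is the site read by the zinc-sensing factor MTF-1. Stretches with T in place of R, such as TGCTCTC, are marked as well. Mt2 lies at chr8:94172368-94172667, plus strand and Mt1 at chr8:94178839-94179138, plus strand.
Mt2: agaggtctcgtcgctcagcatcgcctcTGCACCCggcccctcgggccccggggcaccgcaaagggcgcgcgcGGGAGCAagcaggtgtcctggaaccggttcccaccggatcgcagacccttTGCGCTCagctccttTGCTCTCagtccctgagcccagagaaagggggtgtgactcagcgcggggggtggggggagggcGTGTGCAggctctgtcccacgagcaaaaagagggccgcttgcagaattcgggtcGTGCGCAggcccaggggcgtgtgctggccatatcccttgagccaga
Mt1: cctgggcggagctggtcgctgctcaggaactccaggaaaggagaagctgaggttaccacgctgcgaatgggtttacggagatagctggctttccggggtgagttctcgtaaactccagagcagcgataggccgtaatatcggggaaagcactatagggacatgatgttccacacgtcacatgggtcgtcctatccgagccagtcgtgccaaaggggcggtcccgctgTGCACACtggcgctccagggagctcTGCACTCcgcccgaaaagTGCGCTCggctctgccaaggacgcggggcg
The looser pattern matched 6 times in Mt2 and 3 times in Mt1. These letters are short, and 51.0% of all 32851 promoters in the table hold at least 1 match, so a match describes the sequence only.

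Acute phase proteins, which the liver secretes in inflammation and other tissues can also make, moved in 1 direction where they passed. Of 17 listed and tested genes, 7 rose and 0 fell, and 8 and 0 without replicate 3, with a median difference of 1.45 and 1.60. Haptoglobin (Hp), which binds free hemoglobin, was at 128 to 432 TPM with a median of 229 TPM in cachectic mice and at 8.75, 9.46, 23.6, 8.26 and 4.48 TPM in controls (log2 difference 4.32 ± 0.88 (SE), adjusted p = 3.1e-04, limma). Lcn2, an iron-withholding lipocalin, was at 5.19 to 83.3 TPM with a median of 65.3 TPM and 1.83, 3.42, 2.33, 3.996 and 3.97 TPM (log2 difference 3.52 ± 0.39 (SE), adjusted p = 6.5e-09, limma). Both genes were among the largest ones chosen for no overlap, and Lcn2 had its lowest cachectic value, 5.19 TPM, in replicate 3. Lrg1, a secreted glycoprotein of inflamed tissue, lay at 123 to 190 TPM in 6 cachectic mice, at 7.79 TPM in replicate 3 and at 26.3, 38.02, 34.4, 35.7 and 35.3 TPM in controls (log2 difference 1.45 ± 0.39 (SE), adjusted p = 0.0063, and 2.02 without replicate 3, limma).

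The serum amyloid genes followed another pattern among the mice. Saa1 was at 91.0 TPM in cachectic replicate 1 and 422 TPM in replicate 2, at 3.38 to 14.7 TPM in the other 5, and at 0.319, 0.169, 0.325, 0 and 0.252 TPM in controls. Saa2 was at 78.2 and 420 TPM in the same mice, at 0.267 to 1.16 TPM in the other 5 and at 0 in 4 of 5 controls. The differences were 4.06 ± 0.77 (SE), adjusted p = 1.2e-04 for Saa1 and 2.65 ± 0.91 (SE), adjusted p = 0.039 for Saa2 (limma), and the close likeness of these paralogs leaves the split of reads between them uncertain. Saa2 lost its call without cachectic replicate 1 or 2 or any 1 control, with differences of 1.65 to 3.05 over the 12 fits that each left out 1 mouse. Hepatocyte markers varied among the same mice. Alb was at 163 and 1022 TPM in cachectic replicates 1 and 2, at 33.1 TPM in replicate 3 and at 0 to 1.12 TPM in replicates 4 to 7, and it was at 0, 77.6, 186, 0.695 and 24.2 TPM in the controls. The 10 hepatocyte genes summed to 118 to 2361 TPM in cachectic and 35.3 to 531 TPM in control mice, and 0 of 10 passed the test. With the 4 cachectic and 2 control libraries under 10 TPM of Alb, Saa1 differed by 3.04 (adjusted p = 0.044, limma), Hp by 4.33 (adjusted p = 0.042), Lcn2 by 3.98 (adjusted p = 2.1e-07) and Serpina3n by 6.31 (adjusted p = 1.2e-06), whereas Saa2 differed by 0.76 and missed the threshold (adjusted p = 0.73). In that fit, which kept the mice of the other conditions for its spread, 4 of 17 acute phase genes rose and 0 fell, with a median of 0.83. With array weights the median was 0.76. The mean of the list lay 3.12 and 5.0 above the control mean in cachectic replicates 1 and 2. It lay 0.688 to 1.19 above in the other 5 cachectic mice and 0.764 above in control replicate 3. The part of liver transcripts in the list was not tested.

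The promoters of Saa1, Saa2 and Lcn2 are shown because each holds the letters TTGCNNAA, the core of the site of C/EBP factors. Capitals mark the matches on either strand, and the sequences are again RefSeq, GRCm38.p6, 250 bases before to 50 after the start. They lie at chr7:46742931-46743230, minus strand, at chr7:46751583-46751882, plus strand and at chr2:32387690-32387989, minus strand.
Saa1: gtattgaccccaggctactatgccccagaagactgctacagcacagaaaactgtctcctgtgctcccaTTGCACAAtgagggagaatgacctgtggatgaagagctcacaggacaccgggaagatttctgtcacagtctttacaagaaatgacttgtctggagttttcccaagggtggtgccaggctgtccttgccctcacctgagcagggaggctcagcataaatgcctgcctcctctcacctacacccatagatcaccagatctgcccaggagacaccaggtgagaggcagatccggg
Saa2: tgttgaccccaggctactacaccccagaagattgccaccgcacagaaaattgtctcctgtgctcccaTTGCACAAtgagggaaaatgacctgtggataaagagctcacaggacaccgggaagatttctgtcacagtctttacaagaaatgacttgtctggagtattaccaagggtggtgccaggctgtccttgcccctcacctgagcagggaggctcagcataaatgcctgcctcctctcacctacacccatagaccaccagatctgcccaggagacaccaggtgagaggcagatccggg
Lcn2: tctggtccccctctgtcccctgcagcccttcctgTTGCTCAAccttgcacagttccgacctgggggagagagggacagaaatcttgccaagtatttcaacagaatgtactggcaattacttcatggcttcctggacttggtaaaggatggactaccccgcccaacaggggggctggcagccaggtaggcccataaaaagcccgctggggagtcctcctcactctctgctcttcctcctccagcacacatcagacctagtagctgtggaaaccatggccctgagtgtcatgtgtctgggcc
Among the 12 genes with the largest higher level, 10 had a promoter in the table and 4 of them, Mt2, Saa1, Saa2 and Lcn2, held this core. Of all promoters 10.8% held it. It was also held by 1 of 9 promoters of the largest lower genes, Nmrk2. Among ribosomal protein genes 2 of 29 promoters held it, and among glucocorticoid receptor targets 3 of 19. The promoters shown were picked for these letters, and Saa1 and Saa2 are closely alike paralogs, so the matches describe the sequence only. A role of C/EBP factors was not tested.

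Several genes of IL-6 family signaling were higher in all cachectic mice but replicate 3. Socs3, the feedback inhibitor that STAT3 induces, was at 37.6 to 62.5 TPM in these 6 mice, at 3.04 TPM in replicate 3 and at 3.85, 8.75, 6.93, 7.27 and 6.51 TPM in controls (log2 difference 2.17 ± 0.35 (SE), adjusted p = 1.0e-05, limma). Osmr, the receptor of oncostatin M, lay at 16.6 to 19.1 TPM in the 6 mice, at 2.47 TPM in replicate 3 and at 3.29, 4.604, 5.33, 5.897 and 5.63 TPM in controls (log2 difference 1.33 ± 0.24 (SE), adjusted p = 6.7e-05, limma). Replicate 3 was below the lowest control for both genes, and the 6 others were above the highest. Stat3 itself lay at 36.8 to 61.7 TPM, 3.29 TPM and 17.7, 23.5, 21.96, 22.01 and 19.9 TPM in the same order. With all mice its difference was 0.68 ± 0.34 (SE), adjusted p = 0.18 (limma), and without replicate 3 it was 1.18, adjusted p = 4.8e-05. Il6ra behaved alike (0.75, adjusted p = 0.28, and 1.30, adjusted p = 0.0058 without replicate 3, limma). Cebpd, a transcription factor of the acute phase response, was at 10.1 to 99.2 TPM with a median of 38.8 TPM in cachectic mice and 4.63, 4.82, 7.16, 7.03 and 11.1 TPM in controls (log2 difference 2.37 ± 0.45 (SE), adjusted p = 1.0e-04, limma). Of 27 genes of this pathway, 7 rose and 1 fell with all mice, and 11 and 1 without replicate 3.

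Targets of the glucocorticoid receptor were higher in the same 6 mice. Fkbp5, a cochaperone that the receptor induces strongly, was at 73.1 to 183 TPM in 6 cachectic mice, at 1.61 TPM in replicate 3 and at 6.64, 10.01, 7.79, 9.97 and 18.2 TPM in controls. The 6 mice did not overlap with the controls, and replicate 3 lay below all of them. The difference was 2.51 ± 0.66 (SE), adjusted p = 0.005 with all mice and 3.27, adjusted p = 9.3e-06 without replicate 3 (limma). Ddit4 (REDD1), an inhibitor of mTORC1, was at 47.7 to 259 TPM, 8.42 TPM and 6.20, 8.81, 11.8, 15.7 and 18.2 TPM in the same order (log2 difference 2.50 ± 0.56 (SE), adjusted p = 0.001, limma). Glul, glutamine synthetase, was at 540 to 1182 TPM, 116 TPM and 108, 108, 190, 195 and 266 TPM (log2 difference 1.84 ± 0.39 (SE), adjusted p = 5.3e-04, limma). Hif3a, Tsc22d3 (GILZ) and Gadd45a rose by 1.45, 0.93 and 1.31 (adjusted p = 4.4e-04, 0.047 and 0.0018, limma). The call of Tsc22d3 was lost in 10 of the 12 fits that each left out 1 mouse, all but those without cachectic replicate 3 or control replicate 5, with differences of 0.80 to 1.18. Klf15, Zbtb16 and Arrdc2 missed the threshold with all mice and passed without replicate 3, at 1.01, 1.39 and 2.34 (adjusted p = 0.0013, 0.023 and 0.011, limma). Of 22 listed targets, 10 rose and 2 fell, and 15 and 1 without replicate 3, with medians of 0.92 and 1.36. Pdk4, which is also a target of PPAR factors, went the other way, at 71.8 to 570 TPM with a median of 354 TPM in cachectic mice and 1186, 971, 606, 735 and 297 TPM in controls (log2 difference -1.24 ± 0.44 (SE), adjusted p = 0.046, limma, and -0.91, adjusted p = 0.13 without replicate 3). Pdk4 also lost its call without cachectic replicate 2 or 5 or control replicate 1, 2, 3 or 4, with differences of -1.54 to -0.91 over the 12 fits.

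Several of these targets also vary over the day, and the hour of collection is not given in the sources used here. Of 19 clock genes, 1 rose and 2 fell with all mice, and 4 and 2 without replicate 3. Nr1d1 (Rev-erb alpha), a repressor of the clock, was at 3.86 to 60.7 TPM with a median of 29.4 TPM in cachectic mice and 115, 139, 120, 111 and 55.9 TPM in controls (log2 difference -2.29 ± 0.60 (SE), adjusted p = 0.005, limma). The core gene Arntl (Bmal1) ranged over 0.615 to 14.1 TPM with a median of 2.12 TPM in cachectic mice and was at 10.2, 22.9, 6.802, 5.68 and 1.001 TPM in controls, so both groups spread widely and its difference of -0.92 did not pass (adjusted p = 0.42, limma). Per1 did not pass either (0.81, adjusted p = 0.43, and 1.42, adjusted p = 0.065 without replicate 3, limma).

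**Figure D3:**
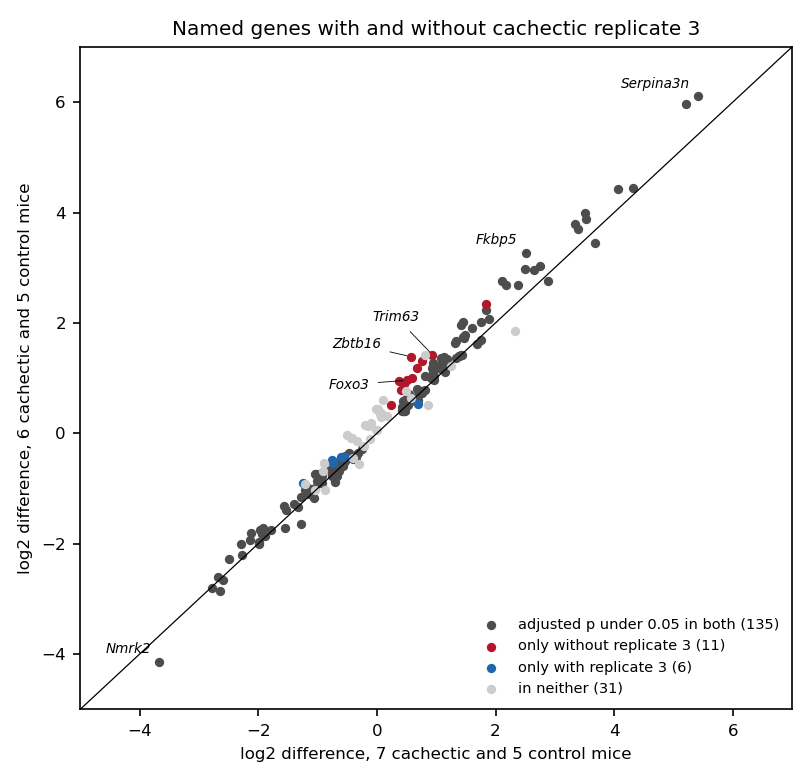
log2 difference of the 183 named genes that were tested, with all 7 cachectic mice (horizontal axis) and without replicate 3 (vertical axis). Black points passed the test in both (135 genes), red points only without replicate 3 (11 genes), blue points only with it (6 genes) and grey points in neither (31 genes), and Trim63, Foxo3 and Zbtb16 are among the red ones.

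Among the genes of protein degradation, the calls of atrophy ligases depended on replicate 3. Trim63 was at 1303 TPM in cachectic replicate 1, 710 TPM in replicate 6, 128 to 218 TPM in replicates 2, 4, 5 and 7 and 29.4 TPM in replicate 3, and at 129, 149, 120, 134 and 74.5 TPM in controls. The difference was 0.94 ± 0.41 (SE), adjusted p = 0.12 with all mice and 1.42, adjusted p = 0.0015 without replicate 3 (limma). Fbxo32 was at 655 and 416 TPM in replicates 1 and 6, at 75.2 to 213 TPM in replicates 2, 4, 5 and 7, at 16.8 TPM in replicate 3 and at 148, 159, 131, 135 and 114 TPM in controls. For this gene 3 cachectic mice lay above the control range, 2 within it and 2 below it, and it passed neither with all mice (0.10 ± 0.41 (SE), adjusted p = 0.91, limma) nor without replicate 3 (0.61, adjusted p = 0.2). Of 21 ligases tested, 1 rose, Asb11 (0.58 ± 0.11 (SE), adjusted p = 2.1e-04, limma), and 1 fell, Trim55 (MuRF2, -1.03 ± 0.30 (SE), adjusted p = 0.012). Without replicate 3, 4 rose and 1 fell. Foxo1 and Foxo3, which act on these ligases, passed only without replicate 3, at 0.88, adjusted p = 0.014 and 0.96, adjusted p = 0.0025 (limma).

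Proteasome and lysosome genes moved by less per gene. Of 38 proteasome subunits, 9 rose and 0 fell (background 6.65% higher), and 15 and 1 did so without replicate 3. The median was 0.20 and 0.22, against -0.09 and 0.06 for all genes. Psmb1, a subunit of the catalytic core, lay at 235 to 345 TPM with a median of 317 TPM in cachectic mice and 181, 209, 190, 185 and 188 TPM in controls without overlap (log2 difference 0.64 ± 0.13 (SE), adjusted p = 3.7e-04, limma). Psma3 and Psma7, alpha-ring subunits, rose by 0.64 and 0.58 (adjusted p = 2.2e-04 and 9.2e-05, limma). Of 33 lysosomal genes, 7 rose and 0 fell, and 16 and 0 without replicate 3. Cathepsin L (Ctsl), a lysosomal protease, was at 226 to 638 TPM with a median of 236 TPM in cachectic mice and 130, 159, 162, 174 and 141 TPM in controls (log2 difference 1.08 ± 0.19 (SE), adjusted p = 5.8e-05, limma). Atp6v1h, a subunit of the proton pump, was at 4.99 to 17.4 TPM with a median of 8.49 TPM and 3.896, 4.46, 4.46, 4.24 and 3.73 TPM (log2 difference 1.07 ± 0.15 (SE), adjusted p = 1.3e-06, limma), and both genes separated the groups. Of 31 autophagy genes and FoxO factors, 5 rose and 2 fell, and 10 and 1 without replicate 3. Map1lc3b and Gabarap, which coat the autophagosome, rose by 0.82 and 0.49 (adjusted p = 6.4e-04 and 5.0e-04, limma), while Foxo6 fell (-1.16 ± 0.23 (SE), adjusted p = 1.7e-04). The autophagy receptor Sqstm1 (p62) passed only without replicate 3 (0.78, adjusted p = 0.0027, limma).

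The listed genes of the cytosolic ribosome rose almost throughout, and ribosomal protein genes outside the list were not examined as a set. Of 40 ribosomal protein genes listed, all were tested, 37 rose and 0 fell with all mice, against 6.65% of all genes higher, and 40 rose without replicate 3, against 12.6%. The median difference was 0.65 with all mice and 0.67 without replicate 3, against -0.09 and 0.06 over all genes. The 40 genes summed to 15500 to 24700 TPM in cachectic mice and 10880 to 12530 TPM in controls. Rplp0, of the stalk of the large subunit, was at 1065 to 1433 TPM with a median of 1247 TPM in cachectic mice and 636, 827, 761, 801 and 765 TPM in controls (log2 difference 0.69 ± 0.09 (SE), adjusted p = 1.3e-07, limma). Rpl4, also of the large subunit, rose by 0.59 (adjusted p = 2.4e-07, limma). Both genes separated the groups with replicate 3 included. All cachectic mice lay above all controls for 32 of the 40 genes, against 2.52% of all genes. The differences ranged from 0.20 in Rps13 to 1.23 in Rpl30, and Rps13, Rps2 and Rplp2 passed only without replicate 3. The group kept its sign in all 24 fits, with medians between 0.53 and 0.81.

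Ribosomal protein genes are short and have many processed pseudogenes, and how multi-mapping reads were assigned is not given in the sources used here, so single values are uncertain. Their median exon length was 2034 bases, against 4201 over all genes. Over the 4379 genes with the shortest exon length the median difference was 0.02 with all mice and 0.08 without replicate 3, and over the 4377 with the longest it was -0.16 and 0.05. With the 4 cachectic and 2 control libraries under 10 TPM of Alb, 27 of the 40 genes rose and 0 fell.

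**Figure D4:**
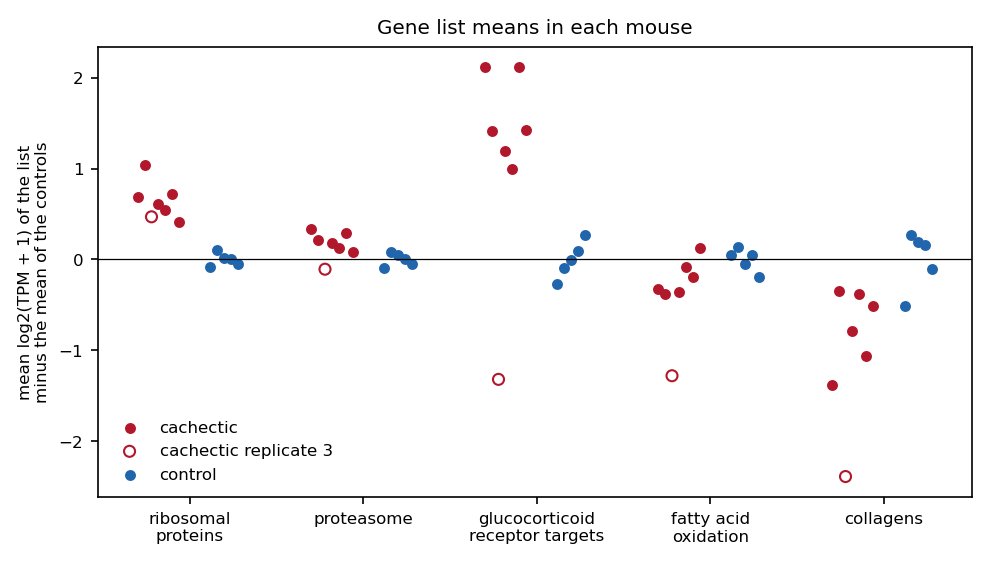
Mean log2(TPM + 1) over each of 5 gene lists in each mouse, minus the mean of the 5 controls (vertical axis). Cachectic mice are red, controls blue, and the open circle is cachectic replicate 3, which sits among the other cachectic mice for ribosomal proteins (0.47) and far below every mouse for glucocorticoid receptor targets (-1.32).

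The genes that govern translation and growth moved singly. Eif4ebp1 (4E-BP1), a repressor of cap-dependent translation, was at 99.3 to 605 TPM with a median of 283 TPM in cachectic mice and at 68.3, 102, 80.2, 89.3 and 98.2 TPM in controls (log2 difference 1.76 ± 0.25 (SE), adjusted p = 1.0e-06, limma). Irs1, the adaptor of the insulin and IGF1 receptors, was at 3.298 to 15.9 TPM with a median of 5.65 TPM and 18.2, 28.6, 17.4, 15.4 and 15.8 TPM (log2 difference -1.41 ± 0.26 (SE), adjusted p = 8.8e-05, limma). Grb14, an inhibitor of the insulin receptor, was at 4.63 to 12.9 TPM with a median of 5.13 TPM and 22.9, 21.1, 17.0, 23.9 and 16.6 TPM (log2 difference -1.55 ± 0.19 (SE), adjusted p = 8.5e-08, limma). Igf1 did not pass (-0.40 ± 0.27 (SE), adjusted p = 0.36, limma). Of 26 genes of this pathway, 3 rose and 3 fell, against 6.65% and 8.12% of all genes, and 5 and 2 did so without replicate 3, against 12.6% and 6.13%, so the list lay near the level of genes at large. Of 21 genes of myostatin and activin signaling, 1 rose and 3 fell (2 and 3 without replicate 3), the lower ones being Fstl1 (-0.97), Gdf11 (-0.52) and the receptor Acvr1 (-0.73), with adjusted p of 0.003, 0.0032 and 0.011 (limma). Mstn, myostatin itself, was at 5.89 to 32.8 TPM with a median of 15.8 TPM in cachectic mice and 13.97, 10.7, 19.5, 11.8 and 50.1 TPM in controls and did not pass (adjusted p = 0.89, limma). Among amino acid transporters and enzymes, Slc3a2, the heavy chain of the leucine transporter, rose by 1.07, and Mccc2, of leucine breakdown, fell (-0.47, adjusted p = 4.8e-04 and 0.009, limma). Asns and Psat1, enzymes of asparagine and serine synthesis that Atf4 induces, rose by 0.81 and 0.76 (adjusted p = 0.0021 and 6.3e-04, limma), and Atf4 passed only without replicate 3 (0.51, adjusted p = 0.0095).

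The contractile apparatus showed single genes that moved in both directions. Of 36 thin filament and Z-disc genes, 5 rose and 5 fell, and 8 and 5 without replicate 3. Lmod3, which nucleates actin filaments, was at 103 to 154 TPM with a median of 118 TPM in cachectic mice and 257, 299, 282, 268 and 274 TPM in controls, without overlap (log2 difference -1.14 ± 0.16 (SE), adjusted p = 9.5e-07, limma). Tnni2, fast troponin I, rose by 0.52 (adjusted p = 6.3e-05, limma). Among the myosins Myh1, the heavy chain of type 2x fibers, lay at 6969 to 13380 TPM in 6 cachectic mice, at 560 TPM in replicate 3 and at 3757, 5252, 4064, 5203 and 5740 TPM in controls. It passed only without replicate 3 (0.94, adjusted p = 0.014, limma), while Myh2, Myh4 and Myh7 passed in neither fit. Mylpf, a fast light chain, rose by 0.47 (adjusted p = 0.0052, limma). Myoglobin (Mb), the oxygen store of muscle, was at 4804 to 16550 TPM with a median of 7787 TPM in cachectic mice, the highest in replicate 3 and there above every control, and at 12500, 13790, 11780, 12150 and 12470 TPM in controls (log2 difference -0.70 ± 0.14 (SE), adjusted p = 2.0e-04, and -0.89 without replicate 3, limma).

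Ky, a Z-disc protein that is mutated in a mouse with spinal curvature, was among the largest lower genes. It was at 1.504 to 23.7 TPM with a median of 4.52 TPM in cachectic mice and 46.1, 39.6, 54.04, 50.5 and 54.98 TPM in controls (log2 difference -2.69 ± 0.45 (SE), adjusted p = 2.2e-05, limma), and replicates 1 and 6 held the lowest values, the higher of them 1.85 TPM. Among the libraries under 10 TPM of Alb, Ky missed the threshold (-1.99, adjusted p = 0.051, limma). Of 24 genes of excitation-contraction coupling, 3 rose and 5 fell, and 3 and 4 without replicate 3. Casq1, the calcium store protein of the sarcoplasmic reticulum, was at 139 to 471 TPM with a median of 336 TPM and 696, 819, 863, 788 and 703 TPM (log2 difference -1.32 ± 0.23 (SE), adjusted p = 3.3e-05, limma). Cacng1, a subunit of the voltage sensor, rose by 1.46 and Trdn, which anchors Casq1, by 0.45 (adjusted p = 8.3e-05 and 8.6e-05, limma). At the neuromuscular junction, Colq, the anchor of acetylcholinesterase, fell (-1.53 ± 0.30 (SE), adjusted p = 1.6e-04, limma). Of 19 genes of the junction and of denervation, 4 rose and 3 fell (5 and 2 without replicate 3), and Myog did not pass (adjusted p = 0.47, limma). Of 18 satellite cell and myogenic regulators, 0 rose and 2 fell, Heyl (-1.05) and Mef2c (-0.61), and 1 and 1 without replicate 3. The call of Mef2c was lost without cachectic replicate 1, 3 or 6 or any 1 control, with differences of -0.69 to -0.43 over the 12 fits (limma).

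Several genes of oxidative metabolism fell. The largest change among the listed metabolic genes was in Nmrk2 (chromosome 10, 81198170 to 81202051, minus strand), a muscle kinase that makes NAD precursor from nicotinamide riboside. It was at 1.36 to 71.5 TPM with a median of 11.5 TPM in cachectic mice, the highest in replicate 3, and at 136, 145, 177, 142 and 88.7 TPM in controls (log2 difference -3.68 ± 0.52 (SE), adjusted p = 9.8e-07, and -4.14, adjusted p = 5.5e-09 without replicate 3, limma). In the mice with the non-cachectic tumor it was at 86.5, 131, 47.1, 134 and 146 TPM. Its paralog Nmrk1 did not pass (0.00 ± 0.15 (SE), adjusted p = 0.99, limma). Of 16 NAD genes, 1 rose and 3 fell (3 and 3 without replicate 3), the lower ones including Nmnat1 (-0.63, adjusted p = 0.0095) and Sirt3, a mitochondrial deacetylase (-0.67, adjusted p = 6.0e-05, limma).

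Of 30 genes of fatty acid oxidation and PPAR targets, 2 rose and 13 fell, against 8.12% of all genes lower, and 4 and 11 without replicate 3, against 6.13%. The median was -0.44 and -0.28. Hadhb, of the mitochondrial trifunctional protein, was at 196 to 329 TPM with a median of 231 TPM in cachectic mice and at 448, 443, 389, 402 and 381 TPM in controls (log2 difference -0.76 ± 0.10 (SE), adjusted p = 4.4e-07, limma). Acadm, the medium-chain acyl-CoA dehydrogenase, was at 257 to 331 TPM with a median of 283 TPM and 401, 419, 349, 380 and 358 TPM (log2 difference -0.41 ± 0.07 (SE), adjusted p = 2.8e-05, limma). Neither gene overlapped between the groups, and replicate 3 was among the 3 highest cachectic mice for both. With the 6 libraries under 10 TPM of Alb, 4 of the 30 genes fell and 0 rose. Ucp3, a mitochondrial carrier that fatty acids induce, fell (-1.22 ± 0.32 (SE), adjusted p = 0.0055, limma), while Cd36 and Fabp4, which take up and carry fatty acids, rose by 0.48 and 0.69 (adjusted p = 0.0031 and 0.044), and Fabp4 was highest in replicate 3 at 2000 TPM. The call of Fabp4 was lost without cachectic replicate 2, 3 or 4 or control replicate 1, 2, 4 or 5, with differences of 0.52 to 0.80 over the 12 fits.

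Of 43 nuclear genes of oxidative phosphorylation, 3 rose and 8 fell, and 2 and 12 without replicate 3. This depended on scaling, since 19 fell when TPM were rescaled without the mitochondrially encoded genes and 4 fell after median-ratio scaling. Ndufs1, of complex I, was at 170 to 254 TPM with a median of 191 TPM in cachectic mice and 293, 319, 282, 317 and 285 TPM in controls (log2 difference -0.55 ± 0.09 (SE), adjusted p = 3.4e-05, limma). Cox7a1, the muscle form of a complex IV subunit, was at 717 to 1029 TPM with a median of 900 TPM and 1313, 1342, 1330, 1291 and 1194 TPM (log2 difference -0.57 ± 0.10 (SE), adjusted p = 8.8e-05, limma). Of 13 mitochondrially encoded mRNAs, 5 fell and 0 rose, and 8 fell without replicate 3, with a median of -0.21 and -0.25. mt-Nd1 was at 17560 to 29270 TPM with a median of 22670 TPM in cachectic mice, the highest in replicate 3, and at 32250, 25000, 29140, 28060 and 32310 TPM in controls (log2 difference -0.41 ± 0.09 (SE), adjusted p = 0.0012, limma). After median-ratio scaling 1 of the 13 fell and their median was -0.05. In glycolysis, 1 of 29 genes rose and 4 fell, against 6.65% and 8.12% of all genes, and 5 and 5 did so without replicate 3, against 12.6% and 6.13%. The genes that fell included Pkm (-0.79), Eno3 (-0.57) and Phkg1 of glycogen breakdown (-0.92), with adjusted p of 0.0039, 0.0069 and 0.0026 (limma). Sod2, the superoxide dismutase of mitochondria, fell (-0.77 ± 0.12 (SE), adjusted p = 1.0e-05, limma), and Hmox1, which breaks down heme, rose from 7.498, 7.35, 8.94, 10.3 and 8.402 TPM in controls to 7.25 to 115 TPM with a median of 21.9 TPM in cachectic mice (log2 difference 1.60 ± 0.34 (SE), adjusted p = 6.2e-04). Sat1, which starts polyamine breakdown, rose (1.19 ± 0.19 (SE), adjusted p = 8.7e-06, limma), and Sms, spermine synthase, fell (-0.56 ± 0.14 (SE), adjusted p = 0.003).

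Many collagen genes fell. Of 30 collagens and collagen-processing genes, 1 rose and 15 fell, against 8.12% of all genes lower, and 1 and 12 without replicate 3, against 6.13%. The median was -0.85 with all mice and -0.60 without replicate 3. Col15a1, a collagen of basement membranes, was at 2.07 to 10.6 TPM with a median of 8.35 TPM in cachectic mice and 29.1, 52.4, 48.9, 42.3 and 32.6 TPM in controls (log2 difference -2.49 ± 0.39 (SE), adjusted p = 7.4e-06, limma). The 3 chains of collagen VI, which surrounds myofibers, fell together, by 1.93 (Col6a1), 2.14 (Col6a2) and 1.93 (Col6a3). Col6a1 was at 7.07 to 40.2 TPM with a median of 18.3 TPM in cachectic mice and 48.4, 89.9, 80.8, 86.1 and 71.7 TPM in controls, with replicate 3 at the lowest value. Of the fibrillar collagens, Col1a1 was at 2.81 to 38.1 TPM with a median of 18.4 TPM and 35.3, 85.2, 75.9, 67.3 and 56.3 TPM (log2 difference -2.12 ± 0.46 (SE), adjusted p = 6.7e-04, limma), with replicate 2, at 38.1 TPM, above the lowest control. Col3a1 fell (-1.89 ± 0.39 (SE), adjusted p = 4.3e-04, limma). The exception that rose was Lox (1.25 ± 0.29 (SE), adjusted p = 0.0016, limma), the enzyme that cross-links collagen. Collagen genes are long, with a median exon length of 6911 bases. With the 4 cachectic and 2 control libraries under 10 TPM of Alb, 2 of the 30 genes fell and 1 rose, with a median of -0.43. Col6a1 and Col6a2 missed the threshold there (adjusted p = 0.062 and 0.064, limma), and Col6a3 passed (adjusted p = 0.04).

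Other matrix genes moved in both directions. Mfap4, a microfibril-associated glycoprotein, was at 1.78 to 24.1 TPM with a median of 6.22 TPM in cachectic mice and 24.8, 40.96, 61.5, 50.1 and 54.6 TPM in controls (log2 difference -2.78 ± 0.38 (SE), adjusted p = 6.6e-07, limma). Chad, chondroadherin of cartilage and tendon, was at 0.254 to 3.49 TPM with a median of 1.16 TPM and 5.47, 15.7, 11.99, 5.09 and 15.3 TPM (log2 difference -2.27 ± 0.41 (SE), adjusted p = 6.5e-05, limma). Among the libraries under 10 TPM of Alb, Chad missed the threshold (-1.27, adjusted p = 0.23, limma) and Mfap4 passed (-2.74, adjusted p = 5.5e-04). The proteoglycan Kera and the microfibril gene Fbn1 fell (-1.99 and -1.28, adjusted p = 0.0013 and 0.0031, limma). Dcn, decorin, rose from 351, 629, 652, 704 and 598 TPM in controls to 630 to 1366 TPM with a median of 720 TPM in cachectic mice (0.49 ± 0.16 (SE), adjusted p = 0.032, limma), with overlap, and lost its call without cachectic replicate 2 or 6 or control replicate 1 (0.31 to 0.57 over the 12 fits). Mgp, an inhibitor of calcification, rose (1.06 ± 0.24 (SE), adjusted p = 0.0014, limma). Of 21 metalloproteases and inhibitors, 5 rose and 4 fell, and 6 and 3 without replicate 3. Mmp3, stromelysin, was at 2.36 to 12.9 TPM with a median of 5.98 TPM in cachectic mice and 0.108, 0.655, 1.68, 0.849 and 1.62 TPM in controls (log2 difference 1.89 ± 0.28 (SE), adjusted p = 3.0e-06, limma), and its inhibitor Timp1 rose by 0.96 (adjusted p = 0.0059). Of 16 markers of fibroblasts and fibro-adipogenic progenitors, 2 rose and 2 fell (3 and 3 without replicate 3), and they summed to 838 to 2006 TPM in cachectic mice and 988 to 1544 TPM in controls. Pdgfra, which defines these cells, was at 2.89 to 13.7 TPM with a median of 8.72 TPM and 6.89, 13.7, 11.1, 10.7 and 10.4 TPM and did not pass (adjusted p = 0.25, limma). Of 5 tenocyte markers tested 2 fell, also without replicate 3, and the 6 listed summed to 30.1 to 191 TPM and 59.7 to 147 TPM. The part of these cells in the matrix values was not tested.

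Inflammatory genes of the tissue rose in part. Ccl8, a chemokine that attracts monocytes, was at 6.13 to 230 TPM with a median of 43.1 TPM in cachectic mice, with replicate 2 highest and replicate 3 next at 92.4 TPM, and at 1.89, 1.102, 1.55, 2.79 and 2.99 TPM in controls (log2 difference 3.67 ± 0.59 (SE), adjusted p = 1.0e-05, limma). Ccl6 and Ccl9 rose by 1.75 and 1.43 (adjusted p = 0.0022 and 0.0022, limma), and Ccl2 did not pass (adjusted p = 0.52). Of 20 chemokines, 4 rose and 1 fell, and 5 and 0 without replicate 3. Of 21 complement genes, 8 rose and 0 fell, and 10 and 0 without replicate 3. C6, of the membrane attack complex, was at 1.54 to 4.58 TPM with a median of 2.43 TPM and 0.264, 0.102, 0.355, 0.441 and 0.265 TPM (log2 difference 1.42 ± 0.20 (SE), adjusted p = 8.6e-07, limma). C1qb, of the initiating complex, was at 34.6 to 112 TPM with a median of 68.6 TPM and 27.9, 32.1, 41.7, 40.1 and 33.0 TPM (0.97 ± 0.27 (SE), adjusted p = 0.01, limma), while C3 did not pass (adjusted p = 0.43). Of 15 macrophage markers, 4 rose and 0 fell (5 and 0 without replicate 3), and they summed to 282 to 1163 TPM in cachectic mice and 313 to 630 TPM in controls. Cd163, a scavenger receptor of macrophages that glucocorticoids raise, was at 3.81 to 24.97 TPM with a median of 18.4 TPM and 3.02, 3.54, 5.23, 5.24 and 6.92 TPM (log2 difference 1.49 ± 0.27 (SE), adjusted p = 7.8e-05, limma), and the pan-macrophage gene Adgre1 (F4/80) did not pass (adjusted p = 0.48). Of 5 neutrophil genes tested, S100a8 and Retnlg rose and Mmp9 fell, and 3 and 1 without replicate 3. Retnlg differed by 1.16 ± 0.33 (SE), adjusted p = 0.011, whereas S100a8 and Mmp9 lost their call without several single libraries (1.12 to 1.505 and -0.77 to -0.47 over the 12 fits). The 14 neutrophil genes listed summed to 9.704 to 76.1 TPM and 5.36 to 16.8 TPM (limma). Interferon and antigen presentation genes gave 1 higher and 1 lower of 33, and 2 and 1 without replicate 3, all under the shares of all genes.

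Vascular genes split. Aplnr, the endothelial receptor of apelin, was at 0.298 to 2.26 TPM with a median of 1.13 TPM in cachectic mice and 9.95, 12.4, 15.4, 11.1 and 10.1 TPM in controls (log2 difference -2.60 ± 0.38 (SE), adjusted p = 1.6e-06, limma). Kdr, the main receptor of VEGF, fell (-0.98 ± 0.25 (SE), adjusted p = 0.004, limma). Pecam1, a general endothelial gene, was at 23.8 to 81.2 TPM with a median of 71.3 TPM and 52.4, 65.1, 65.2, 51.99 and 62.6 TPM and did not pass (adjusted p = 0.85, limma). Ackr1, a chemokine-binding receptor of venules, rose from 2.65, 2.44, 2.71, 3.15 and 2.396 TPM to 7.57 to 10.6 TPM with a median of 8.66 TPM (log2 difference 1.38 ± 0.17 (SE), adjusted p = 6.2e-08, limma), and Plvap, of fenestrated and activated endothelium, rose by 0.94 (adjusted p = 0.0092). Of 9 genes of vascular adhesion and activation tested 3 rose and 0 fell, with and without replicate 3, and of 16 endothelial markers 2 rose and 2 fell (1 and 2 without replicate 3).

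The remaining genes with the largest changes have less defined roles in muscle. Apod, a lipid-binding apolipoprotein, was at 50.03 to 328 TPM with a median of 210 TPM in cachectic mice and 14.3, 19.3, 17.04, 15.4 and 17.8 TPM in controls (log2 difference 3.39 ± 0.29 (SE), adjusted p = 3.9e-12, limma). Tmem252 was at 2.23 to 22.1 TPM with a median of 16.1 TPM and 0.236, 0.104, 0.1805, 0.227 and 0.352 TPM (log2 difference 3.52 ± 0.34 (SE), adjusted p = 1.5e-10), and Scgb3a1, a secretoglobin known from airways, at 2.24 to 18.3 TPM with a median of 12.5 TPM and 0.647, 0.428, 0.661, 0.1702 and 1.19 TPM (log2 difference 2.74 ± 0.27 (SE), adjusted p = 2.4e-10, limma). All 3 genes were chosen for no overlap between the groups, and each had its lowest cachectic value in replicate 3. Wfdc21 rose by 2.88 (adjusted p = 0.021, limma), but its call was lost without cachectic replicate 2 or control replicate 5 (2.61 to 3.19 over the 12 fits) and among the libraries under 10 TPM of Alb (adjusted p = 0.3). Nrep, a small protein of wound repair and TGF-beta signaling, was at 4.15 to 39.1 TPM with a median of 17.2 TPM in cachectic mice, the highest in replicate 3, and at 96.5, 95.5, 96.8, 111 and 90.5 TPM in controls (log2 difference -2.64 ± 0.35 (SE), adjusted p = 3.9e-07, limma). Tmem233 and the kinase Sbk2 fell by 1.99 and 1.98 (adjusted p = 1.4e-05 and 1.5e-05, limma). Ccnd1, cyclin D1, was at 0.905 to 3.86 TPM with a median of 2.14 TPM and 7.18, 10.8, 12.3, 12.96 and 9.86 TPM (log2 difference -1.79 ± 0.30 (SE), adjusted p = 2.2e-05, limma), and 5 of 16 cell cycle genes fell while 1, Pcna, rose (5 and 2 without replicate 3).

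**Figure D5:**
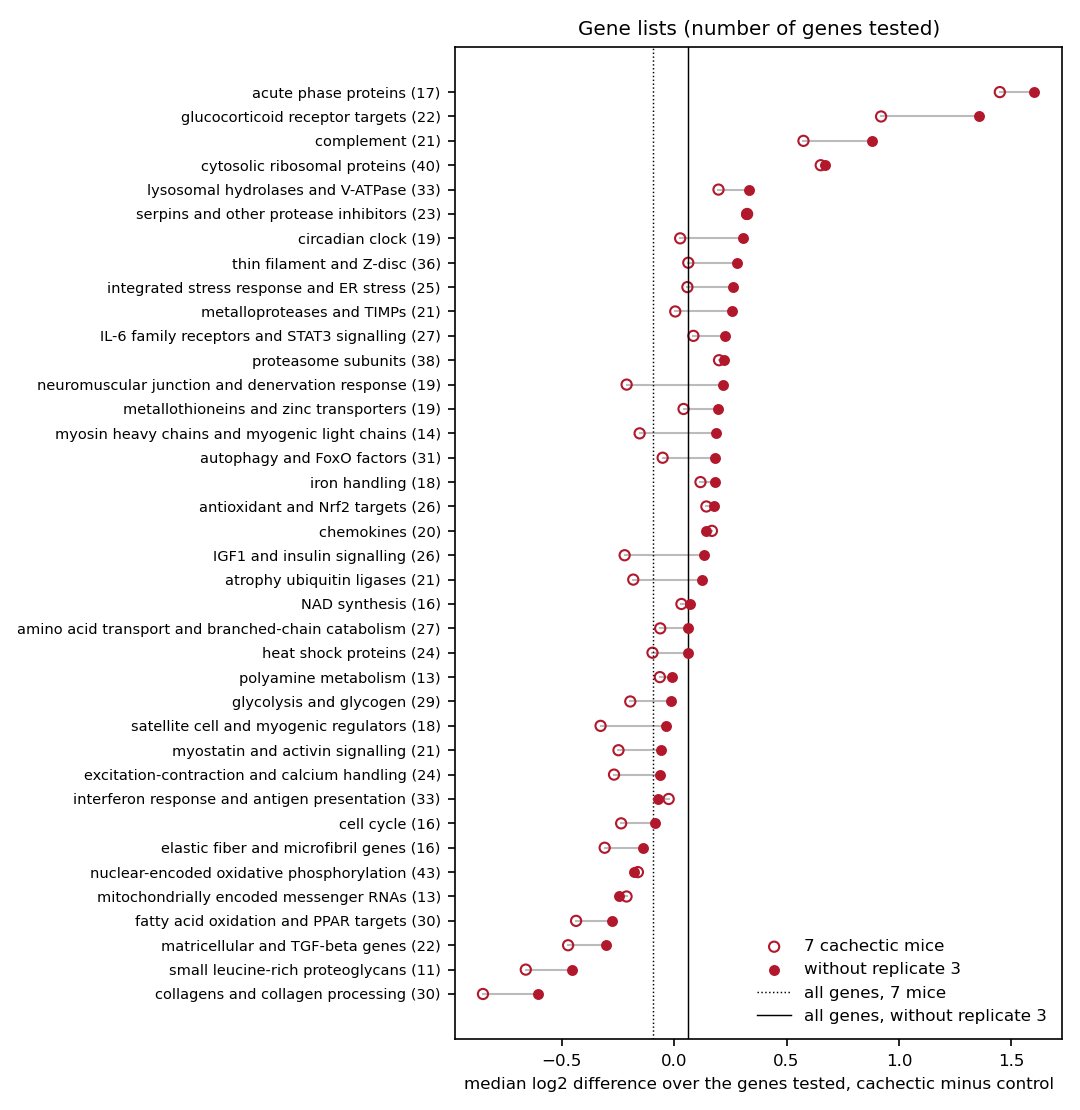
Median log2 difference over the tested genes of each of 38 gene lists (horizontal axis), with all 7 cachectic mice (open circles) and without replicate 3 (filled circles); the number of genes tested is in parentheses and vertical lines give the median of all genes. Acute phase proteins (1.45 and 1.60) and collagens (-0.85 and -0.60) lie at the ends, and ribosomal proteins (0.65 and 0.67) differ little when replicate 3 is left out.

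The 8-week difference was compared with that at 6 weeks and with the non-cachectic tumor. In the test of the difference between the 8-week and the 6-week contrast, 0 genes passed with limma, 580 had an unadjusted p under 0.05, and without replicate 3 the counts were 0 and 300. With array weights 72 genes passed. The 6-week mice were 5 cachectic and 5 control animals. For Serpina3n the 8-week contrast exceeded that at 6 weeks by 0.37 (adjusted p = 0.82, limma), and for Nmrk2 the contrasts differed by -1.52 (adjusted p = 0.62). Between mice with the non-cachectic tumor and controls at 8 weeks, 0 genes passed with limma and 55 had an unadjusted p under 0.05, and without a filter on low values 2 passed. This contrast shares its 5 controls with the cachectic one. Rplp0 was at 745, 637, 776, 846 and 726 TPM and Col6a1 at 61.2, 90.5, 26.2, 85.4 and 87.02 TPM in these mice, and their differences from the controls were -0.02 and -0.20 (limma, unadjusted p = 0.81 and 0.61). Non-cachectic replicate 3 lay outside the control range on the cachectic side for several named genes. It held Serpina3n at 21.7, Mt2 at 43.2, Mt1 at 145 and Hp at 92.5 TPM. Nmrk2 was at 47.1, Mfap4 at 10.6 and Aplnr at 1.73 TPM in it. Its Serpina3n, Mt2 and Mt1 exceeded those of cachectic replicate 3, while its Tmem252, Scgb3a1 and Rplp0 were within the control range.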

How the data were processed

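Diaphragm RNA of 62 mice was sequenced, 1 library per mouse, in 12 conditions, and only the 8-week cachectic and control mice are described in full. The authors extracted RNA with Trizol, sequenced it on an Illumina NovaSeq instrument, mapped the reads to the mouse genome (GRCm38) in CLC Genomics Workbench and deposited TPM (transcript abundances that sum to the same total in each library) for 47643 genes. The labels name a stranded library kit and the study's methods another TruSeq kit, and the use of strand in counting is not given in the sources used here. Read depth is unknown because TPM keep no depth, so no counting error or floor is given.

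The 13578 genes that reached 1 TPM or more in 5 or more mice were tested on log2(TPM + 1) with limma 3.58.1 in R 4.3.3 (moderated test with trend, 1 mean per condition over all mice, two-sided, Benjamini-Hochberg adjustment). The study used a Kruskal-Wallis test with Dunn's test, which was run as an alternative. P-values measure a spread between mice that is pooled over all conditions, not that of the 12 mice compared alone, with 1 tumor per xenograft group. The named genes were the 12 with the largest difference in each direction among genes that passed, with a mean of at least 5 TPM and no overlap between groups (predicted gene symbols left out), a set of anchor genes, and up to 3 members with the smallest adjusted p of each of 38 functional and 16 marker lists. A few others (Alb, the melanocyte genes, Cd36, Lox, Rpl30, Rplp2, Rps2 and Rps13) were named after their values were seen. The members and lists were chosen with earlier results of these data known. Alternatives were another pseudocount, no filter, median-ratio, quantile and mitochondria-free scaling, array weights, a replicate block, only the groups compared, and leaving out each mouse. The limma script was tested on simulated data. Exon lengths and positions came from GENCODE M21 and promoters from RefSeq, with Python 3.11.15.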

Additional observations from a re-analysis of the deposited data

Results flagged for a closer look

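10 values of 52 groups examined, compared on the log2(TPM + 1) scale for genes, lay further from the rest of their group than Dixon's criterion allows at 95%, and chance flags about 1 group in 20. Of these, 7 belong to cachectic replicate 3. This library had 15263 genes above 0 TPM, against 18066 to 18634 in the other cachectic mice, and 57.1% of its TPM came from mitochondrially encoded genes, against 32.5% to 41.6%. Serpina3n was at 18.4 TPM in it and at 322 to 1062 TPM in the other 6 cachectic mice. Mt2 was at 20.9 TPM against 275 to 1750 TPM, Lcn2 at 5.19 TPM against 42.1 to 83.3 TPM, Apod at 50.03 TPM against 154 to 328 TPM, and Tmem252 at 2.23 TPM against 11.0 to 22.1 TPM. Each of these 5 values was above every control, which the choice of these genes required.

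Among the controls, replicate 1 was low for both metallothioneins, with Mt2 at 6.96 TPM against 13.9 to 17.3 TPM and Mt1 at 64.8 TPM against 76.6 to 80.3 TPM in the other 4. Saa2 was at 0.167 TPM in control replicate 5 and listed at 0 in the other 4.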

How the results depend on the processing

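The counts of genes that passed moved with the processing, and the cause was not tested. With all mice 903 genes were higher and 1102 lower, 181 and 225 of them by more than 1. Higher and lower counts were 1587 and 1675 after median-ratio scaling, 1479 and 1952 after quantile normalization, 3287 and 1634 with array weights, 746 and 2869 without mitochondrially encoded genes, 252 and 300 with only the 12 mice fitted, and 290 and 831 with Dunn's test. By more than 1 they were 275 and 132 with array weights, 99 and 137 with only the 12 mice, 71 higher with Dunn's test, 434 lower with a pseudocount of 0.1 and 410 lower without mitochondrially encoded genes. Choices added after seeing the data gave other counts. Median-ratio scaling without cachectic replicate 3 gave 1722 higher and 1722 lower. Only the groups compared, without that library, gave 1776 higher, 314 of them by more than 1. With only the 6 mice under 10 TPM of Alb compared and the other conditions kept in the fit, 146 were lower. By more than 1, 289 were higher and 67 lower there.

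Leaving out 1 mouse at a time gave 663 to 1708 higher and 758 to 1508 lower genes, and 148 to 309 and 158 to 294 by more than 1, the highest counts of higher genes without cachectic replicate 3. The count for 8 against 6 weeks was 0 throughout but for 72 with array weights, and that for the non-cachectic tumor was 0 but for 2 without a filter. With the replicate number as a block, fitted on replicates 1 to 5 of the groups compared alone, 8 genes were higher and 6 lower. All of these differed by more than 1, and 1621 genes had an unadjusted p under 0.05. This fit also left out cachectic replicates 6 and 7 and the other conditions, so its counts do not show the block alone. The deviations of same-numbered mice correlated weakly (r = -0.0318 to 0.256). Replicates 3 and 4 matched best with the mouse of the same number, and replicates 1, 2 and 5 with another. The labels do not say whether the numbers pair mice. Of 183 named genes, 135 passed with and without replicate 3 and 6 only with it, so only these had a call to lose. Under the block 135 genes lost their call. With only the groups compared 67 lost it, and with the libraries under 10 TPM of Alb 65 lost it. None of the 183 reversed a call under any alternative. The sign of the median changed under some alternative in 34 of 54 lists and in none for ribosomal proteins and collagens. TPM hold no read depth, so counting error at low levels could not be judged.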

Other observations

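Transcripts of blood, B cells and fat varied strongly among mice. The 7 erythroid genes summed to 41260 TPM in cachectic replicate 3 and to 538 to 10570 TPM in the other 11 mice, and 0 of the 5 tested passed. The 9 genes of B and plasma cells summed to 6210 TPM in the same mouse and to 72.5 to 1037 TPM in the controls, and 0 of 9 passed. The adipocyte genes summed to 3474 TPM there, against 545 to 1862 TPM in controls, and 1 of 12 fell. T and NK cell genes were near the limit of the table, at 0.606 to 10.4 TPM in cachectic and 2.16 to 3.13 TPM in control mice summed over 12 genes. Hemoglobin genes have near-identical copies, so the split of reads among them is uncertain.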
